A study of Homo sapiens with 4 samples.

Results

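ID1, ID2, ID3, ID4, SMAD6, SMAD7, SKIL and SKI were examined in the myeloma line U266 and the leukaemia line K562, each with vehicle or atovaquone. These 8 of 18417 genes were chosen by name, with their levels in both lines and their ratios of atovaquone to vehicle already known. All values below are therefore descriptions without a test. Each gene had 1 probe set, and its Entrez identifier gave the same symbol in RefSeq for 8 of 8. U266 is an established plasma cell myeloma line, and K562 is an established line from chronic myeloid leukaemia in blast crisis with erythroid traits. Atovaquone, an antimalarial drug, inhibits mitochondrial complex III. The U266 groups were exposed for 2 h, to DMSO or to atovaquone at 15 µM. The K562 groups were exposed for 5 h, to DMSO or to atovaquone at 20 µM. Each group has 1 array, so no value has a replicate error, and all ratios compare single arrays. Dose and time differ between the lines, so their ratios are set side by side.

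ID proteins are helix-loop-helix proteins that lack a DNA-binding region. They pair with E proteins and keep them from DNA, and in blood cells they hold back lineage programmes that E proteins drive. Bone morphogenetic proteins (BMPs) act through receptor kinases and the SMAD transcription factors, and ID1, ID2 and ID3 are among the best known SMAD targets. SMAD6, SMAD7, SKIL and SKI are brakes on SMAD signalling by BMPs or TGF-beta, and SMAD6, SMAD7 and SKIL are also induced by such signals. SMAD6 and SMAD7 block receptors and receptor-regulated SMADs. SKIL, also called SnoN, and SKI bind SMAD complexes in the nucleus and recruit co-repressors.

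Array medians lay between 314 and 340 in deposited intensity. The floor, each array's 40th percentile over annotated probe sets, lay between 305 and 331, and a gene counted as measured where it reached the floor. On the vehicle arrays 11 of 12 plasma cell markers were 2-fold or more above K562 in U266, and 9 of 10 erythroid and megakaryocytic markers were 2-fold or more above U266 in K562. Of 13 T cell, fibroblast, endothelial and epithelial markers, 6 were below the floor on both vehicle arrays. Of the others PECAM1 was brighter in U266, by at least 2.74-fold, and EPCAM was at least 5.87-fold higher in K562. PECAM1 was below the floor on both vehicle arrays when a gene's probe sets were averaged, and a 60th percentile floor gave its log2 difference a lower bound of 0.39, so that marker call is lost under both. On bulk arrays fewer cells of a type and less RNA per cell cannot be told apart.

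ID2, ID3 and SKIL were bright in U266, whereas ID1, SMAD6 and SKI were brighter in K562. ID4 and SMAD7 were below the floor on both vehicle arrays. With atovaquone the 5 members measured in U266 differed from vehicle by at most 1.07-fold. In K562 ID1 was 1.71-fold lower and ID2 1.67-fold higher, and the other 3 measured members differed by at most 1.17-fold.

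**Figure D1:**
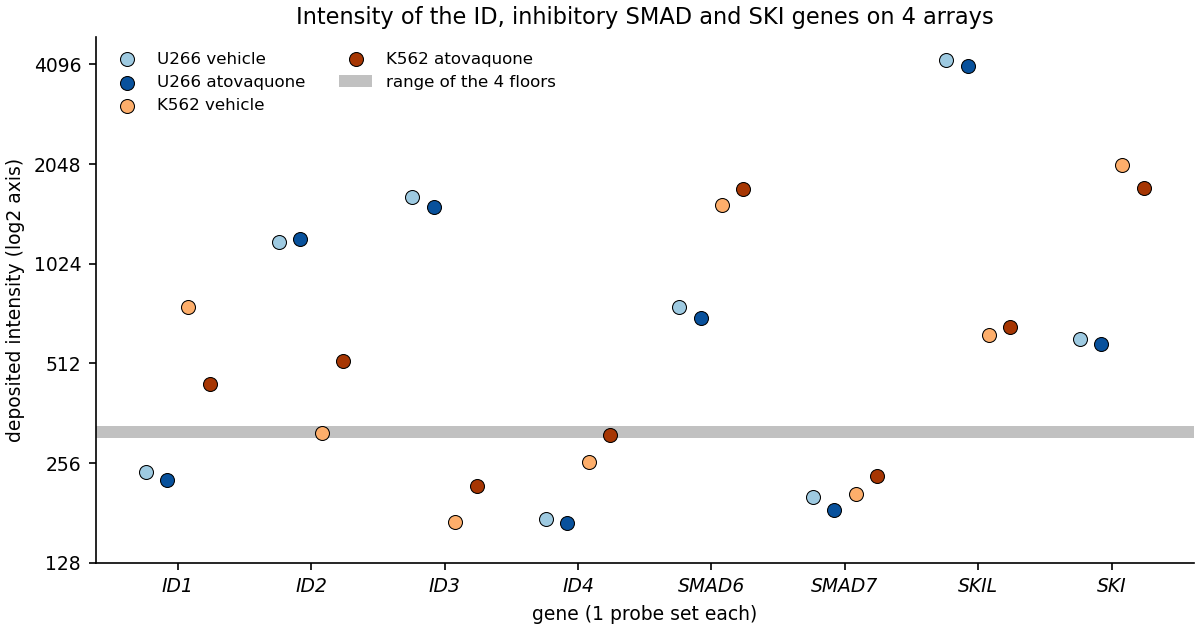
Deposited intensity (log2 axis) of each of the 8 genes on the 4 arrays, 1 point per array, with the range of the 4 floors, 305 to 331, as a grey band. ID2, ID3 and SKIL sit higher in U266, SMAD6 and SKI sit higher in K562, and SMAD7 is below the band on all 4 arrays.

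The promoters of ID1, ID2 and ID3 are shown because these genes had the clearest differences among the ID genes, between lines for all of them and with atovaquone in K562 for ID1 and ID2. Sequences are the 250 bases before the annotated start in RefSeq, build GRCh38.p14, read 5′ to 3′ on the gene's strand, and 7 of the 8 genes, all but SKI, matched the table. The ID1 window is chr20:31605039-31605288 on the plus strand, the ID2 window chr2:8681806-8682055 on the plus strand and the ID3 window chr1:23559502-23559751 on the minus strand. Capitals mark matches to any of the motifs named after the sequences.
ID1: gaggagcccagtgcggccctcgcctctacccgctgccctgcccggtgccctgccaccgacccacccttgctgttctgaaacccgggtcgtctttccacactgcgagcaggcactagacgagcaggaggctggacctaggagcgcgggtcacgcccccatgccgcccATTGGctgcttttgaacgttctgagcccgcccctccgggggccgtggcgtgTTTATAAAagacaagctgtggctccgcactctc
ID2: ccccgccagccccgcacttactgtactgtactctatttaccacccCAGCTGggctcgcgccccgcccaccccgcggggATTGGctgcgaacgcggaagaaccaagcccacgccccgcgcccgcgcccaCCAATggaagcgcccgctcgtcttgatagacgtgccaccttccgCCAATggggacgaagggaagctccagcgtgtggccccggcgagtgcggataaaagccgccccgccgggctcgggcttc
ID3: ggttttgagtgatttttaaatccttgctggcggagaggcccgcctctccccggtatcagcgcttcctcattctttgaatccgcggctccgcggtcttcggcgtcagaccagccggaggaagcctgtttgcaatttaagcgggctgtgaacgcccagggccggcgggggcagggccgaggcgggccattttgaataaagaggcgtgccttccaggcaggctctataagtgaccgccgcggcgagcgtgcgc
The motifs searched on both strands were GTCTAGAC, the SMAD palindrome, GGCGCC, a GC-rich SMAD motif, CAGCTG, an E-box bound by E proteins, TGACGTCA, the cyclic AMP response element, TGATGCAA, an ATF4 and C/EBP composite, GCGTGGGCG, the EGR1 motif, TATAAA, the TATA box, and CCAAT. In ID1 a TATAAA starts 31 bases before the gene's start and overlaps its reverse complement, and a reverse CCAAT starts 84 bases before it. ID2 holds no TATAAA, 3 matches to CCAAT on either strand, which start 172, 122 and 78 bases before the start, and a CAGCTG that starts at 205 bases. ID3 holds none of the 8 motifs in this window. Of 35116 promoter windows of this length, 10.7% hold TATAAA, 32.0% CCAAT and 14.0% CAGCTG on either strand. None of the 9 windows of the members, of which SMAD7 has 3, holds TGATGCAA or GCGTGGGCG, which are in 0.772% and 0.720% of all windows. The GC content of the windows was 66.0% for ID1, 69.2% for ID2 and 62.0% for ID3, beside a median of 58% over all windows. A match is a description of the letters and not a measured binding site. The search took exact letters in these 250 bases only, so it does not cover near matches or sites farther upstream.

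ID1, a classic BMP target gene, had an intensity of 241 with vehicle and 228 with atovaquone in U266, and 760 with vehicle and 443 with atovaquone in K562. Both U266 values lay below the floor, both K562 values lay above it, and the K562 vehicle value was the highest of the 4. ID1 was at least 2.26-fold higher in K562 than in U266 with vehicle. With atovaquone its log2 ratio in K562 was −0.77, a 1.71-fold lower value. Of 10756 genes measured on both K562 arrays, 25 had a lower ratio. Among 3331 genes of similar mean intensity, within 0.5 on the log2 scale, 34 had a ratio at least as far from 0 in either direction.

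ID2, which opposes E proteins in lymphoid and myeloid cells, had an intensity of 1191 with vehicle and 1214 with atovaquone in U266, and 315 with vehicle and 522 with atovaquone in K562. The U266 values were the higher pair, and the K562 vehicle value lay just above its floor of 305. With vehicle ID2 was 3.85-fold higher in U266, and 154 of 9483 genes measured on both vehicle arrays had a larger difference in that direction. In K562 its log2 ratio was 0.74, a 1.67-fold higher value with atovaquone, and 65 of 10756 genes had a higher ratio. Among 2791 genes of similar mean intensity 11 had a ratio at least as far from 0. In U266 the log2 ratio was 0.04, a value exceeded by 37.7% of the 10731 genes measured there.

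ID1 and ID2 thus lay on opposite sides of vehicle in K562, ID1 with the lower value and ID2 with the higher. Of 5 members measured on both K562 arrays, 1 passed 1.5-fold upward and 1 downward, beside 1.42% of all measured genes upward and 0.697% downward. Both calls depend on where the floor is set. With the floor at the 60th percentile ID2 was below it on both K562 arrays and ID1 had only an upper bound of −0.21. Among erythroid and megakaryocytic markers in K562, 0 of 10 measured were at least 1.5-fold different with atovaquone in either direction. Their median log2 ratio was −0.04, with a range from −0.46 for GFI1B to 0.56 for ALAS2. Of 7 plasma cell markers measured in K562, 1 was at least 1.5-fold higher, XBP1, a transcription factor of the secretory programme, at 0.63. Those 7 had a median of 0.0064, 4 above 0 and 3 below, and FKBP11 was lowest at −0.37.

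ID3, a target of B cell receptor and BMP signals that restrains E proteins in B cells, had an intensity of 1627 with vehicle and 1520 with atovaquone in U266, and 170 with vehicle and 218 with atovaquone in K562. Both K562 values lay below the floor, so no K562 ratio is given. With vehicle ID3 exceeded its K562 value by at least 5.42-fold in U266, and its U266 log2 ratio with atovaquone was −0.09. ID4, the member best known from neural and breast tissue, had intensities of 174 and 169 in U266 and of 258 and 310 in K562, vehicle first. Only the K562 atovaquone value reached its floor, of 306, which leaves a lower bound of 0.03 for the log2 ratio.

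SMAD6, the inhibitory SMAD that acts mainly on BMP receptors, had an intensity of 758 with vehicle and 704 with atovaquone in U266, and 1539 with vehicle and 1719 with atovaquone in K562. Both K562 values exceeded both U266 values, and with vehicle SMAD6 was 1.996-fold higher in K562. The log2 ratio with atovaquone was −0.10 in U266 and 0.16 in K562, opposite in sign and each within the robust SD of all ratios, 0.12 in U266 and 0.18 in K562. SMAD7, which acts on TGF-beta as well as BMP receptors, had intensities of 202 and 185 in U266 and of 206 and 234 in K562, vehicle first. All 4 values lay below the floor, so neither a ratio nor an order is given.

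SKIL, which encodes the co-repressor SnoN, had an intensity of 4228 with vehicle and 4054 with atovaquone in U266, and 624 with vehicle and 658 with atovaquone in K562. The U266 values were far above the K562 values, 6.89-fold with vehicle, and 30 of 9483 genes had a larger difference in favour of U266. SKI had the opposite order, with an intensity of 608 with vehicle and 586 with atovaquone in U266, and 2040 with vehicle and 1735 with atovaquone in K562. SKI was 3.29-fold higher in K562 with vehicle, and 162 of 9483 genes had a lower difference of U266 from K562. With atovaquone SKIL had a log2 ratio of −0.05 in U266 and 0.08 in K562, and SKI had −0.04 in U266 and −0.23 in K562. The K562 value of SKI was 1.17-fold lower than vehicle, and 23.7% of all measured genes had a ratio farther from 0.

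Short stretches of the SMAD6 and SKIL promoters are shown because each holds a palindrome linked to a signalling pathway, in capitals. Both are from build GRCh38.p14 on the plus strand, at chr15:66702213-66702235 for SMAD6 and chr3:170357650-170357679 for SKIL.
SMAD6: gccgccaaagtGTCTAGACtggc
SKIL: cgaggactcggTGACGTCAgagggctgtgt
The capitals in SMAD6 are GTCTAGAC, the palindrome that SMAD proteins recognise, which starts 12 bases before the gene's start and is in 0.182% of the 35116 windows. The capitals in SKIL are TGACGTCA, the cyclic AMP response element bound by CREB and ATF proteins, which starts 54 bases before the start and is in 1.65% of windows. SKIL also holds a GGCGCC that starts at 190 bases, a motif in 16.4% of windows. No other window of the members holds GTCTAGAC or TGACGTCA.

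Between the vehicle arrays 4 members were measured on both, of which 2 favoured U266 and 1 favoured K562 by 2-fold or more, beside 7.97% and 6.97% of the 9483 genes measured on both. With members measured on 1 array only, the genes past 2-fold were ID2, ID3 and SKIL toward U266, and ID1 and SKI toward K562, beside 11.2% and 8.85% of the 12574 genes measured on at least 1 vehicle array. SMAD6, at −0.997 on the log2 scale, lay just inside 2-fold and passed it toward K562 at −1.02 with no centring, −1.06 with no floor and −1.03 with a 20th percentile floor. The count toward K562 then became 3 with bounds. With a 60th percentile floor ID1 and ID2 had bounds of −0.14 and 0.92 and were no longer past 2-fold. This contrast was known when the members were chosen, so these counts stand as a description. Line and length of vehicle exposure cannot be told apart, since the U266 vehicle lasted 2 h and the K562 vehicle 5 h.

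**Figure D2:**
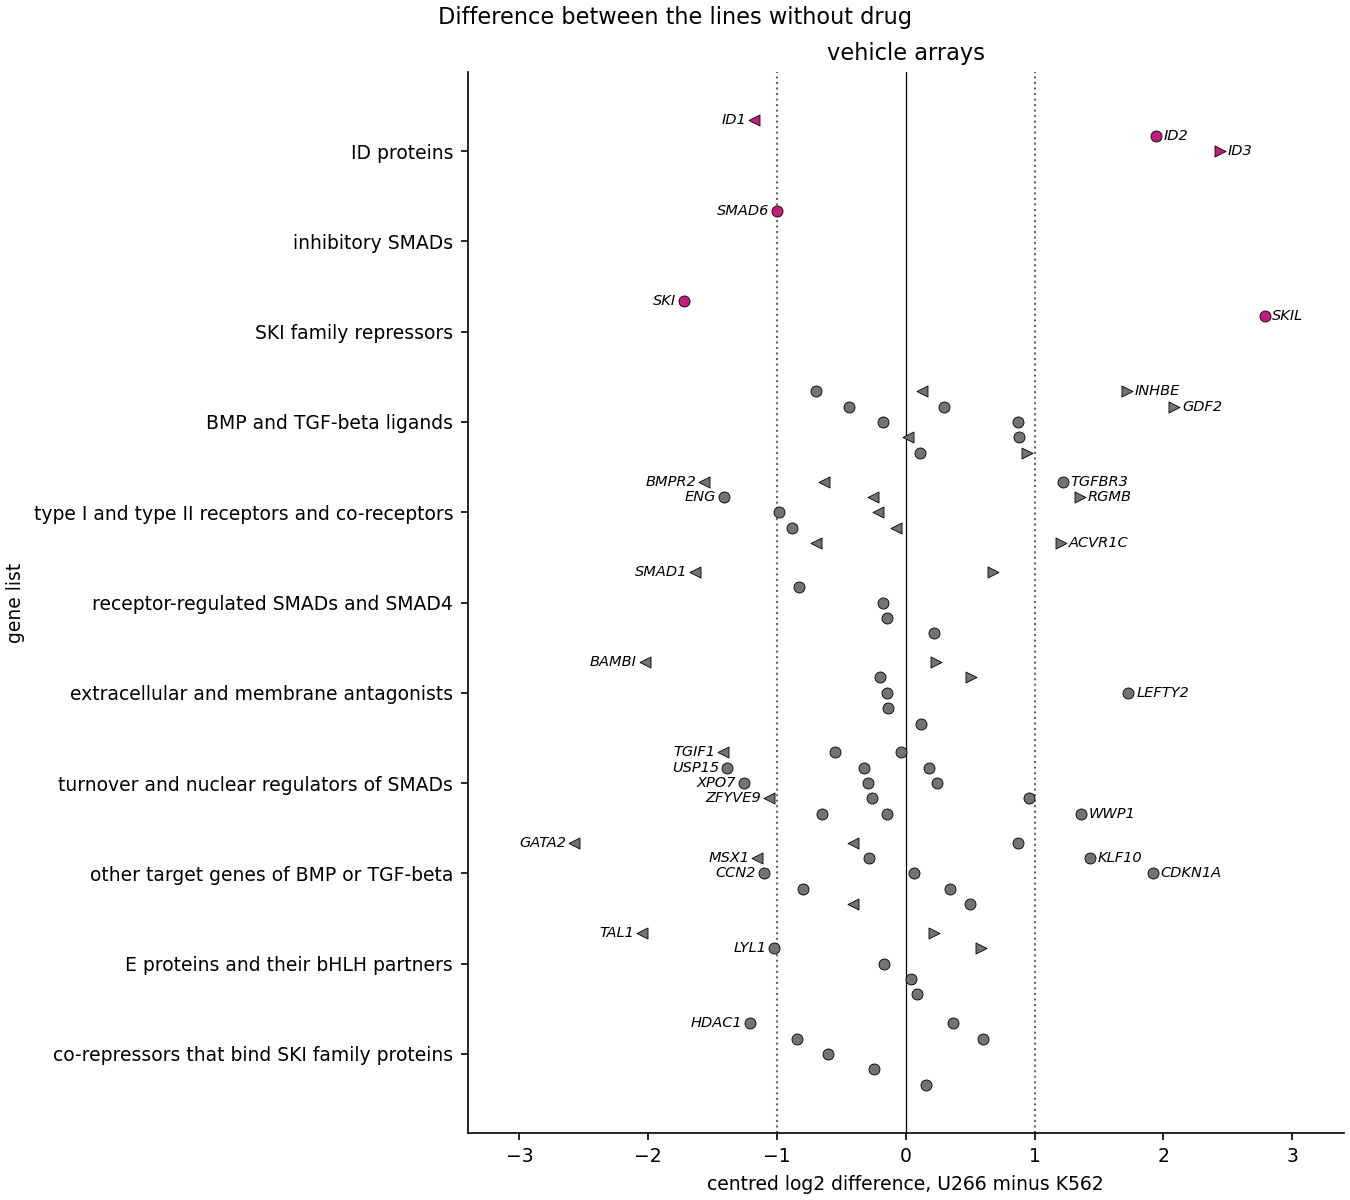
Centred log2 difference between the vehicle arrays, U266 minus K562, for each measured member (pink) and for genes of 8 other lists (grey), 1 point per gene. Triangles are bounds that point away from the dim array, dotted lines mark 2-fold, and SKIL at 2.79 and SKI at −1.72 lie on opposite sides, as do ID2 at 1.95 and ID1 at −1.17 or lower.

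With atovaquone in U266, 0 of 5 measured members passed 1.5-fold in either direction, beside 0.857% of the 10731 measured genes upward and 0.0932% downward. Their median log2 ratio was −0.05, with a range from −0.10 for SMAD6 to 0.04 for ID2, and the median over all genes was −0.00012. In K562 the median of the 5 measured members was 0.08, with a range from −0.77 to 0.74, and the median over all genes was −0.0057. The members that passed the floor differ between the lines, since ID3 was measured in U266 and ID1 in K562.

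**Figure D3:**
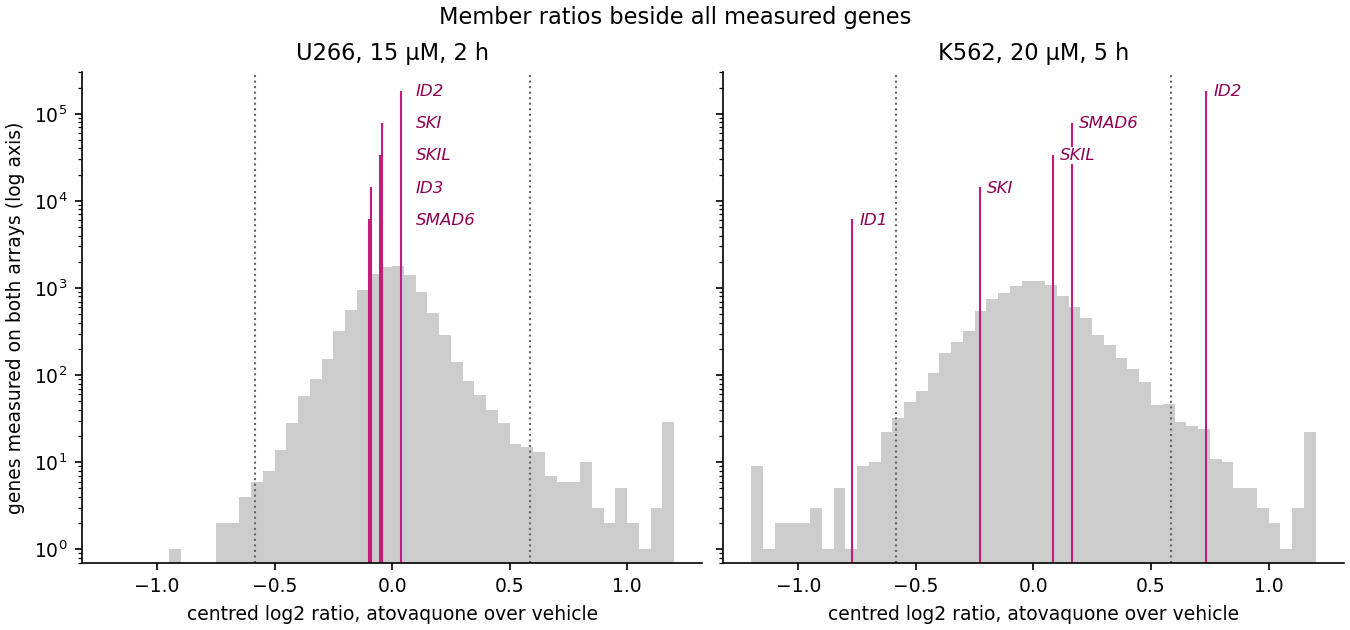
Number of genes (log axis) by centred log2 ratio of atovaquone over vehicle in U266, left, and K562, right, with members measured on both arrays as pink lines whose height has no meaning. Dotted lines mark 1.5-fold, the outermost bars also hold all values beyond them, and ID1 at −0.77 and ID2 at 0.74 in K562 lie outside the dotted lines.

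Other genes of the pathway were taken by role from 8 lists of 115 genes in all, of which 107 had a probe set. In U266, 61 of them were measured, and 0 passed 1.5-fold in either direction with atovaquone. The shares of all 10731 genes measured there were 0.857% upward and 0.0932% downward, and 0 of 61 is near them. In K562, 70 were measured, and 1 passed 1.5-fold upward and 1 downward, beside 1.42% and 0.697% of all 10756 measured genes. One gene of 70 in each direction is near those shares, so the count says nothing particular of the pathway, and the genes are given by name as a description. The higher one was TGIF1, a homeodomain repressor that binds SMAD complexes, with an intensity of 900 with vehicle and 1491 with atovaquone and a log2 ratio of 0.73. It was below the floor on both U266 arrays, with 173 and 240. The lower one was KLF10, a zinc finger gene first described as induced by TGF-beta, with an intensity of 630 with vehicle and 381 with atovaquone and a log2 ratio of −0.72. With the floor at the 60th percentile KLF10 was below it on both K562 arrays. In U266 KLF10 stood at 1665 with vehicle and 1583 with atovaquone, a log2 ratio of −0.06.

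Among 23 ligand genes 10 were measured on both arrays in U266 and 9 in K562. With atovaquone 0 of them were at least 1.5-fold different in either line. Over all measured genes the shares were 0.857% upward and 0.0932% downward in U266, and 1.42% and 0.697% in K562. A count of 0 in a list of this size is near those shares and says nothing particular of the ligands. INHBE, which encodes the activin beta E subunit, was named after its values were seen, because it was below the floor on the K562 vehicle array. Its intensity was 149 with vehicle and 608 with atovaquone in K562, at least 1.997-fold higher. In U266 it was 987 with vehicle and 1338 with atovaquone, a log2 ratio of 0.45. With no floor its K562 log2 ratio was 2.04, and under a 60th percentile floor it was below the floor on both K562 arrays, so that call is lost. GDF2, which encodes the circulating ligand BMP9, and INHBE were higher in U266 with vehicle, at least 4.25-fold and at least 3.29-fold.

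Of 12 receptor and co-receptor genes measured on at least 1 vehicle array, 3 were past 2-fold toward U266 and 2 toward K562 with bounds counted, beside 11.2% and 8.85% of all genes measured on at least 1 vehicle array. Of 15 receptor and co-receptor genes with a probe set, 6 were measured on both arrays in U266 and 10 in K562. With atovaquone 0 of them were at least 1.5-fold different in either line. That count is near the shares of all measured genes, 0.857% upward and 0.0932% downward in U266 and 1.42% and 0.697% in K562. With vehicle BMPR2, the type II receptor of BMPs, was at least 2.96-fold higher in K562 and ENG, the co-receptor endoglin, 2.66-fold higher. RGMB, a BMP co-receptor, had at least a 2.55-fold higher value in U266. SMAD1, which carries the BMP signal, had an intensity of 184 with vehicle and 179 with atovaquone in U266 and of 1048 and 947 in K562. It was at least 3.11-fold higher in K562 with vehicle. SMAD5, its close relative, was bright in both lines, at 3031 in U266 and 2654 in K562 with vehicle. SMAD9, of the same list, had the opposite order to SMAD1. With vehicle it stood at 480 in U266 and at 279, below the floor, in K562, a log2 difference of at least 0.68. Of the 6 receptor-regulated SMADs and SMAD4, 5 were measured in each line, with log2 ratios between −0.14 and 0.09 in U266 and between −0.18 and 0.02 in K562.

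Of 8 antagonist genes measured on at least 1 vehicle array, 1 was past 2-fold toward each line with bounds counted. Over all genes measured on at least 1 vehicle array the shares were 11.2% toward U266 and 8.85% toward K562. A count of 1 of 8 is near those shares and says nothing particular of the antagonists. BAMBI, a decoy receptor, was at least 4.08-fold higher in K562 with vehicle, and LEFTY2, which blocks NODAL signalling, was 3.31-fold higher in U266. Of regulators of SMAD turnover and nuclear activity, 15 were measured on at least 1 vehicle array. With bounds counted, 4 of them were past 2-fold toward K562 and 1 toward U266, beside 8.85% and 11.2% of all genes. By size of value or bound, TGIF1 came first and was at least 2.68-fold higher in K562. The deubiquitinase gene USP15 was 2.62-fold higher in K562, and the ubiquitin ligase gene WWP1 was 2.57-fold higher in U266. Of other genes induced by BMP or TGF-beta, 13 were measured on at least 1 vehicle array. With bounds counted, 3 of them were past 2-fold toward K562 and 2 toward U266, beside the same 8.85% and 11.2%. By size of value or bound, GATA2, a haematopoietic transcription factor, came first and was at least 5.95-fold higher in K562. The cell cycle inhibitor gene CDKN1A and KLF10 came next, 3.78-fold and 2.69-fold higher in U266.

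The partners of ID proteins were measured on the same arrays. TCF3, TCF4 and TCF12, which encode the E proteins, had vehicle intensities of 1653, 2674 and 3277 in U266 and of 1635, 2563 and 3756 in K562. Their differences between lines were 0.04, 0.09 and −0.17 on the log2 scale, small beside those of ID2 and ID3. Of the bHLH factors that pair with E proteins, TAL1, a regulator of red cell development, was at least 4.14-fold and LYL1 2.03-fold higher in K562 with vehicle. With atovaquone the 5 measured genes of this list lay between −0.09 and 0.09 in U266 and between −0.21 and 0.05 in K562. Of the co-repressors that SKI and SKIL recruit, 7 of 9 had a probe set, and the histone deacetylase gene HDAC1 was 2.31-fold higher in K562. With atovaquone 0 of these 7 were at least 1.5-fold different in either line. That count is near the shares of all measured genes, 0.857% upward and 0.0932% downward in U266 and 1.42% and 0.697% in K562. Under a 60th percentile floor the 2-fold differences between lines were lost for 8 of the pathway genes named here, BAMBI, BMPR2, INHBE, LEFTY2, LYL1, RGMB, SMAD1 and TGIF1, whose values became bounds between −0.99 and 0.78.

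**Figure D4:**
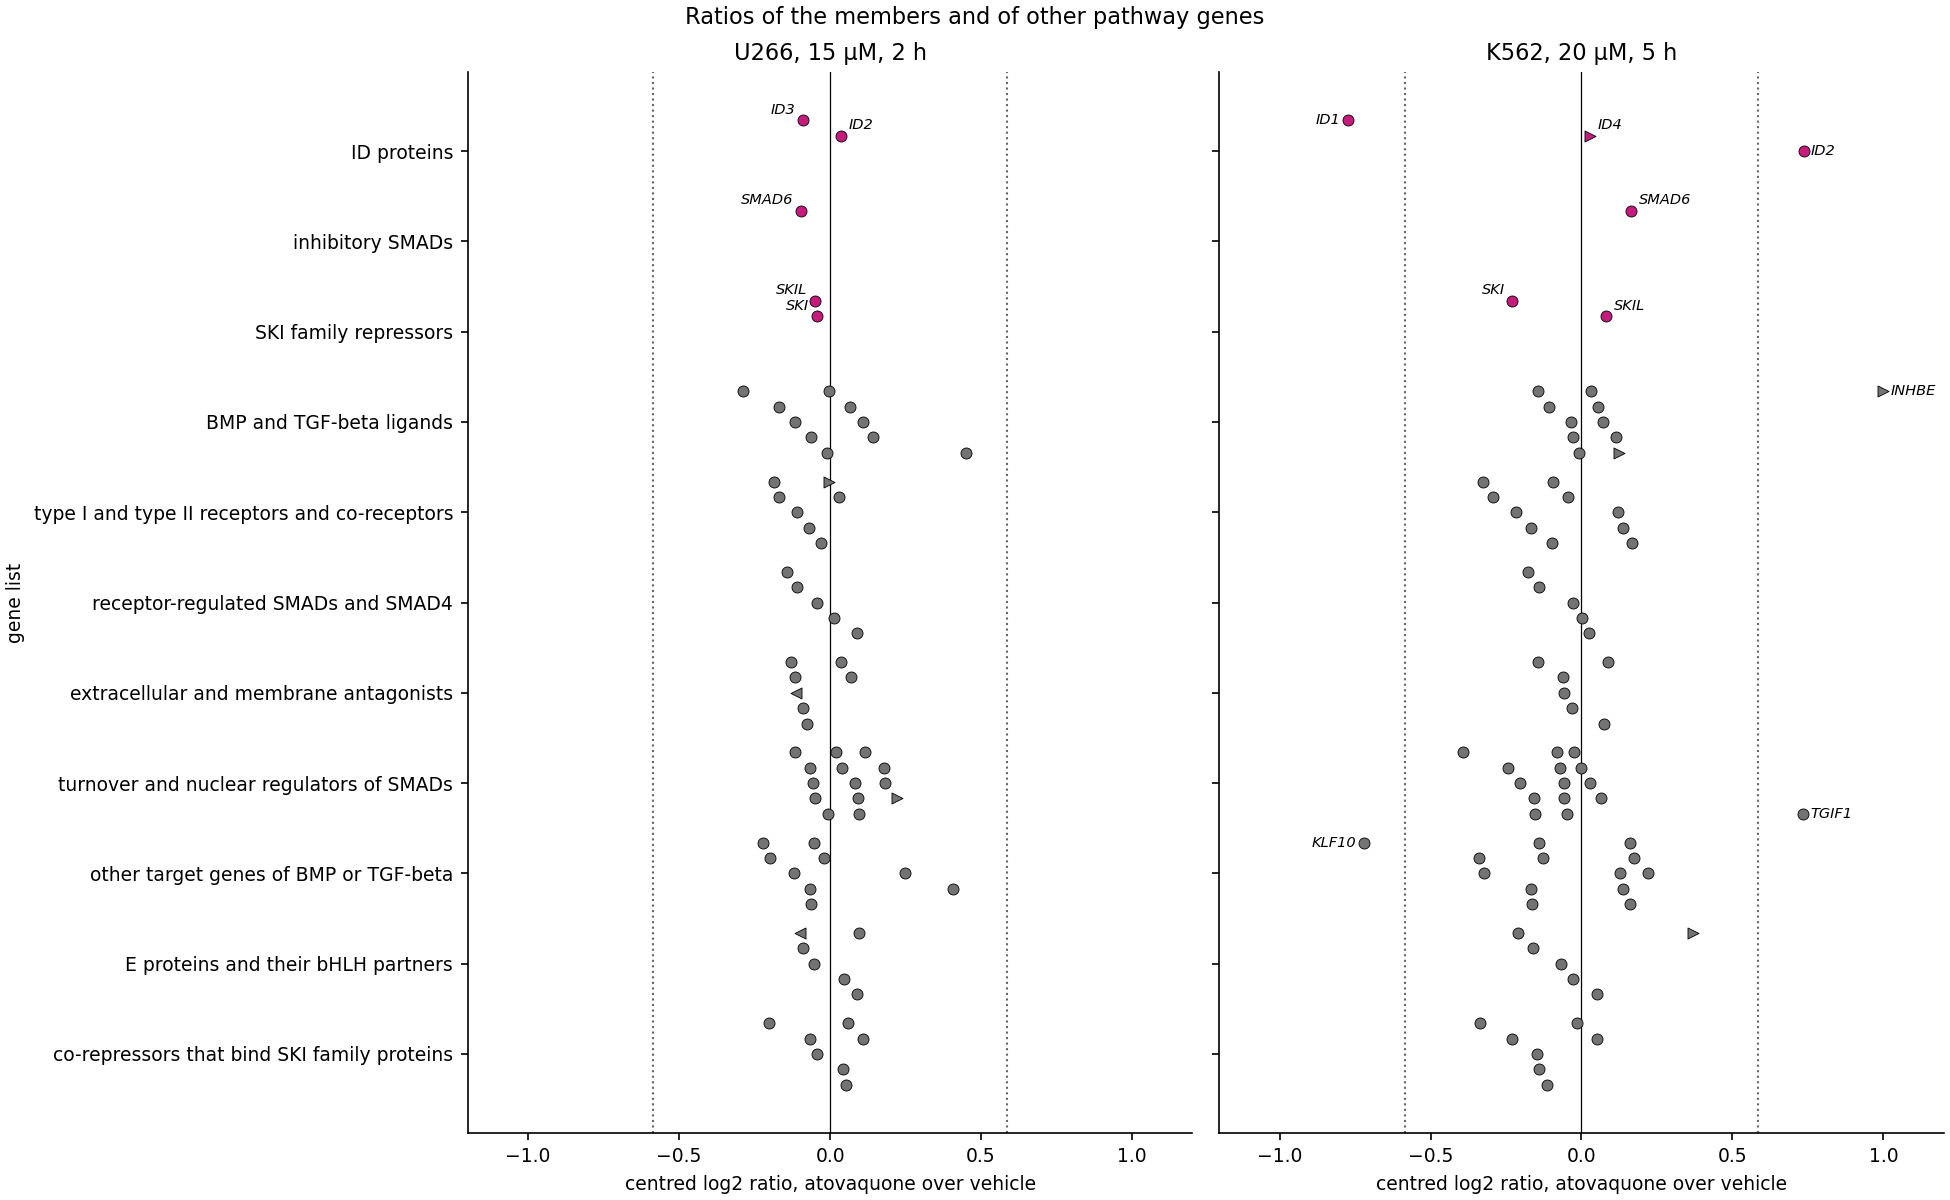
Centred log2 ratio of atovaquone over vehicle for the members (pink) and the genes of 8 other lists (grey) in U266, left, and K562, right, 1 point per gene measured on at least 1 array. Triangles are bounds and dotted lines mark 1.5-fold, and no gene is beyond them in U266, whereas ID1, ID2, TGIF1, KLF10 and INHBE are in K562.

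The genes with the most similar pattern over the 4 arrays were found by the Euclidean distance between log2 profiles, each centred on its own mean after values were raised to the floor. For ID1 these were KLHL18, APLNR, the apelin receptor gene, and LRCH1, at distances of 0.10, 0.14 and 0.16. KLHL18 had an intensity of 1171 with vehicle and 721 with atovaquone in K562. For ID2 they were LRP12, DDB2, a gene of DNA damage recognition, and SQSTM1, which encodes the autophagy receptor p62, at 0.15, 0.18 and 0.18. SQSTM1 had an intensity of 2009 with vehicle and 2953 with atovaquone in K562, a log2 ratio of 0.56. Nearest to ID3 were TRAF3IP3, PLEKHB1 and the histone gene H4C16, at 0.04, 0.04 and 0.05. Nearest to SMAD6 were ZNF852, TNNT1 and MTRF1, at 0.02, 0.04 and 0.05. Nearest to SKIL were the transporter gene SLC47A1, ST8SIA4 and PDK2, each at 0.06. In K562 SLC47A1, at 139 and 127, and ST8SIA4, at 71 and 60, were below the floor, vehicle first. SKIL was measured there, at 624 and 658, so those distances rest on values raised to the floor. ID3, TRAF3IP3, PLEKHB1 and H4C16 were also below the floor on both K562 arrays, so that part of each profile is the floor. The same holds for ID1, APLNR and LRCH1 in U266. Nearest to SKI were PWWP3A, GSE1 and the zinc finger gene RREB1, at 0.05, 0.05 and 0.06. The distances are descriptions over 4 arrays and 12844 genes measured on at least 1 of them.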

How the data were processed

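The authors deposited 1 processed intensity per probe set and array, on a linear scale. Their software, background correction and normalisation are not given in the sources used. Total RNA was labelled as biotin cRNA by the Affymetrix procedure, per the labels' protocols. Of 33252 probe sets, 19460 had 1 gene symbol in the platform annotation and gave 18417 genes, each represented by its brightest probe set. Intensities were put on the log2 scale and raised to the 40th percentile of each array's annotated probe sets. Ratios were centred on the median over measured probe sets. This subtracted −0.0096 in U266, −0.0048 in K562 and −0.025 between vehicle arrays. Where 1 of 2 arrays was below the floor, a bound is given ("at least"). No test was possible with 1 array per group, and calls were made at 1.5-fold with atovaquone and at 2-fold between lines.

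The members and lists were chosen with earlier results of these data known. The genes named are all 8 members, up to 4 genes per other list and line at least 1.5-fold different with atovaquone, up to 3 per list at least 2-fold different between lines, and the 3 genes most like each member that spans at least 1 on the log2 scale. The text names some marker genes of that rule. INHBE in K562 and genes given by range, the E protein genes, SMAD5 and SMAD9 were added after their values were seen. Alternatives were quantile normalisation, no centring, no floor, floors at the 20th and 60th percentiles, the mean of probe sets, and probe sets with several symbols. The calculation was tested on simulated data, with changes put only into genes far above the floor. That test does not cover genes near the floor, such as ID2 in K562. Python 3.11.15 with numpy 2.4.6 and pandas 2.3.3 was used. Promoters were read from RefSeq, build GRCh38.p14.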

Additional observations from a re-analysis of the deposited data

Results flagged for a closer look

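SMAD6 and SKIL lay on opposite sides of vehicle in the 2 lines. SMAD6 had a log2 ratio of −0.10 in U266 and 0.16 in K562, a difference of −0.26. SKIL had −0.05 in U266 and 0.08 in K562, a difference of −0.13. Neither difference was tested, since each line had 1 array per group, and dose and time differ between the lines. Each of the 4 ratios lay within the robust SD of all measured genes in its line.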

How the results depend on the processing

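Quantile normalisation, no centring, the mean of probe sets and probe sets with several symbols moved each member's values by less than the robust SD of all measured genes in that comparison. Each member has 1 probe set, so the choice among probe sets could not move its own intensity. Settings of the floor moved values by construction, since a bound becomes a ratio or a ratio a bound, and 0 values changed sign past the fold used.

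With no floor, log2 ratios became available in U266 for ID1 at −0.06, ID4 at −0.02 and SMAD7 at −0.11, and in K562 for ID3 at 0.37, ID4 at 0.28 and SMAD7 at 0.20. Vehicle differences, U266 minus K562, were then −1.69 for ID1, 3.22 for ID3, −0.61 for ID4 and −0.06 for SMAD7. Under a 20th percentile floor the ratios were −0.06, −0.02 and −0.11 in U266 and 0.36, 0.27 and 0.19 in K562 for the same genes, and the differences −1.66, 3.25, −0.58 and −0.03. Under a 60th percentile floor K562 had an upper bound of −0.21 for ID1 and a lower bound of 0.030 for SKIL, and 0 members passed 1.5-fold in either direction. The vehicle differences were then bounds of −0.14 for ID1, 0.92 for ID2, 1.37 for ID3, 2.75 for SKIL and −1.56 for SKI. ID2 and ID4 in K562 and SKI in U266 had no ratio there. The count of members measured on both vehicle arrays and at least 2-fold higher in K562 was 2 with no centring, where SMAD6 joined at −1.02, 3 with no floor and with a 20th percentile floor, and 0 with a 60th percentile floor. The count toward U266 was 0 with a 60th percentile floor, and with bounds counted 1 member was then past 2-fold toward K562. Of 25 named genes outside the members past 2-fold between lines, 9 were no longer past it with a 60th percentile floor, PECAM1 among them, and 1, PECAM1, with the mean of probe sets. Of 4 past 1.5-fold in K562 with atovaquone, 2, KLF10 and INHBE, were below the 60th percentile floor on both arrays. Signal over background limits ID3, ID4 and SMAD7 in K562 and ID1, ID4 and SMAD7 in U266.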
